A study of Homo sapiens with 15 samples.

Results

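The genes described here are the 10 that encode transcription factors of the MYC-MAX network, together with YY1. They were chosen by symbol alone (MYC, MAX, MXD1, MXD3, MXD4, MXI1, MNT, MLX, MLXIP and YY1). All 10 were present in both deposited tables, among 12995 genes. The 15 RNA libraries came from 5 groups of 3. OKF6 is an oral epithelial cell line labelled as normal and wild type. SCC15 and SCC25 are oral squamous carcinoma lines that carried Cas9 with an mCherry marker and an inducible guide RNA against YBX1 with a GFP marker; doubly positive cells were sorted and expanded as a population. Each carcinoma line was measured without doxycycline (+YBX1) and after doxycycline at 1 µg/ml (-YBX1), with 3 days as the labelled time. OKF6 and SCC25 were kept in a serum-free medium for keratinocytes, and SCC15 in DMEM containing foetal serum. Line and medium thus cannot be told apart in any comparison of SCC15 with another line. Only the carcinoma lines carried the constructs and were sorted, so line and this handling cannot be told apart in any comparison with OKF6. No source says that the 3 libraries of a group were separate cultures, so the p-values measure the spread between libraries, which may be technical. As these are bulk RNA samples, fewer cells that use a gene and less RNA of it per cell cannot be told apart.

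MYC binds DNA only as a heterodimer with MAX, and the pair activates genes through the E-box, the letters CACGTG, many of them for ribosome production, nucleotide synthesis and growth. MXD1, MXD3, MXD4, MXI1 and MNT compete with MYC for MAX and, through SIN3-type corepressors, repress genes at the same sites. MLX pairs with some of these repressors and with MLXIP, a sensor of sugar phosphates that switches on TXNIP and ARRDC4. YY1 is a zinc finger factor outside the network that activates or represses depending on its partners and that can bind MYC. YBX1, the gene targeted in the study, encodes a cold-shock domain protein that binds RNA and was first known for binding the Y-box, an inverted CCAAT motif.

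In GENCODE v44 on hg38, MAX lies on chromosome 14 (65006174 to 65102695, minus strand) and YY1 further along chromosome 14 (100238298 to 100282788, plus strand). MXD4 lies on chromosome 4 (2247432 to 2262109, minus strand) and MXD1 on chromosome 2 (69897688 to 69942945, plus strand). Reads of a 3′ end library come from the last exon. None of the 86 pieces of 75 bases cut from the last 500 bases of each gene's main transcript matched another place in hg38 as well as its own. The last exon of MLX overlapped PSMC3IP on the other strand by 894 bases, and those of MNT and YY1 each overlapped an antisense long noncoding gene, by 1818 and 2830 bases. The strand setting of the read counting is not given in the sources used here, so reads from these 3 genes and their antisense partners cannot be told apart. The last exon of MXD4 overlapped the microRNA gene MIR4800 on the same strand by 80 bases, and its part in the MXD4 count was not tested.

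The promoters of MXD4 and MXD1 are shown because these genes differed most between SCC15 and the other lines, in opposite directions. Each sequence is the 250 bases before the RefSeq start of the gene (build GRCh38.p14), at chr4:2262110-2262359 on the minus strand for MXD4 and chr2:69914859-69915108 on the plus strand for MXD1, the latter inside the GENCODE span of the gene. Capitals mark the E-box CACGTG and the letters ATTGG on either strand. ATTGG on the strand of the gene is an inverted CCAAT box, and CCAAT there is a direct one.
MXD4: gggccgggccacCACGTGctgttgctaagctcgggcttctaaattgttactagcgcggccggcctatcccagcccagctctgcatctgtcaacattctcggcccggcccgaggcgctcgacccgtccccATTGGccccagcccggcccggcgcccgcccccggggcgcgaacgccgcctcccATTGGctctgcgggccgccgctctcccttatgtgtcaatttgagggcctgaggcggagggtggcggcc
MXD1: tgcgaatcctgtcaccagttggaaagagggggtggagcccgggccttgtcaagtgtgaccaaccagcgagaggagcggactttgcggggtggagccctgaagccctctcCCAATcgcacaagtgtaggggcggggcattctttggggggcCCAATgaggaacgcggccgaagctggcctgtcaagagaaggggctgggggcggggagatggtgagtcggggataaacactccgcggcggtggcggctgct
The MXD4 window held 1 CACGTG, which began 238 bases before the start, and 2 inverted CCAAT boxes, at 121 and 68 bases. The MXD1 window held no CACGTG. Its 2 matches, at 141 and 100 bases, read CCAAT on the strand of the gene, so they are direct and not inverted CCAAT boxes. Promoters of 9 of the 10 genes were matched in the table used. CACGTG occurred in those of MXD4, MNT and MLX, and in 6.49% of 27305 promoter windows of the same length. ATTGG on either strand occurred in those of MXD1, MXD3, MXD4, MLX and MLXIP, and in 33.0% of all windows. The YY1 motif GCCATNTTG, searched on both strands, was in none of the 9 windows and in 1.42% of all. The motifs share no overlap within these windows, and a match is a description of letters only.

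The libraries held 4075290 to 6118501 reads on genes. Levels are log2 of counts scaled to library size (CPM) as deposited, so a step of 1 is a doubling, and levels are compared between libraries rather than between genes. Of the 10 genes, 9 had at least 30 reads in every library, whereas MXD3 had 3 reads in its lowest libraries. OKF6 replicate 1 stood apart from its group. Its read counts differed from replicates 2 and 3 by a chi-square of 80.8 and 79.3 per degree of freedom over all genes. Between replicates 2 and 3 the value was 26.1. To a lesser degree, replicate 1 also stood apart in SCC15 +YBX1 (20.2 and 18.5, against 9.24) and SCC15 -YBX1 (28.6 and 28.3, against 3.99). In SCC25 -YBX1 it was replicate 2 (43.3 and 44.7, against 22.7). The SCC25 +YBX1 values were 10.0, 15.15 and 11.2. Epithelial markers were low in SCC15, which the study classes as mesenchymal-like, with SCC25 as basal-like. All 10 keratinocyte markers, among them KRT5, KRT6A and PKP1, were lower in SCC15 than in OKF6 and than in SCC25 at an adjusted p under 0.05, and their summed level was 119 to 144 CPM in SCC15 +YBX1 against 28821 to 39243 CPM in OKF6 and 13909 to 25383 CPM in SCC25 +YBX1. The 5 simple epithelium markers summed to 58.7 to 61.1 CPM in SCC15 +YBX1 and 1359 to 1588 CPM in SCC25 +YBX1; CDH1, the epithelial cadherin, had 22 reads in all over the 3 SCC15 +YBX1 libraries and 5799 over OKF6. Of markers of other cell types, 2 of 8 fibroblast genes (COL1A1 and LUM) were in the tables, at a summed 11.5 to 30.4 CPM in SCC15 +YBX1 and 29.3 to 44.7 CPM in OKF6, where LUM had no read. Of 6 leukocyte genes, CD14 and CD68 were present, at 0.506 to 2.00 CPM together in SCC15 +YBX1 and 12.2 to 29.3 CPM in OKF6. None of 4 endothelial genes was in the tables. The part of these differences in any result below was not tested.

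Between the lines, 4 of the 10 genes differed in SCC15 against OKF6, 1 in SCC25 against OKF6 and 6 in SCC15 against SCC25, by limma with an adjusted p under 0.05 over all genes. In SCC15 against OKF6, 1 gene was higher (MXD4) and 3 were lower (MYC, MXD1, YY1), where 26.9% of all genes were called higher and 23.4% lower. In SCC25 against OKF6, only MAX was called, as higher, where 18.9% of all genes were called higher and 11.3% lower. In SCC15 against SCC25, MXD3 and MXD4 were higher and MYC, MAX, MXD1 and YY1 lower, where 20% of all genes were called higher and 23.6% lower. Without OKF6 replicate 1, which stood apart, 6 of the 10 genes were called in SCC15 against OKF6 (57.2% of all genes) and 3 in SCC25 against OKF6 (41% of all). The libraries of the groups did not overlap for 4 of 10 genes in SCC15 against OKF6 (54.4% of all genes), 1 of 10 in SCC25 against OKF6 (43.3%) and 7 of 10 in SCC15 against SCC25 (66.6%). The 3 comparisons share libraries and are not independent.

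**Figure D1:**
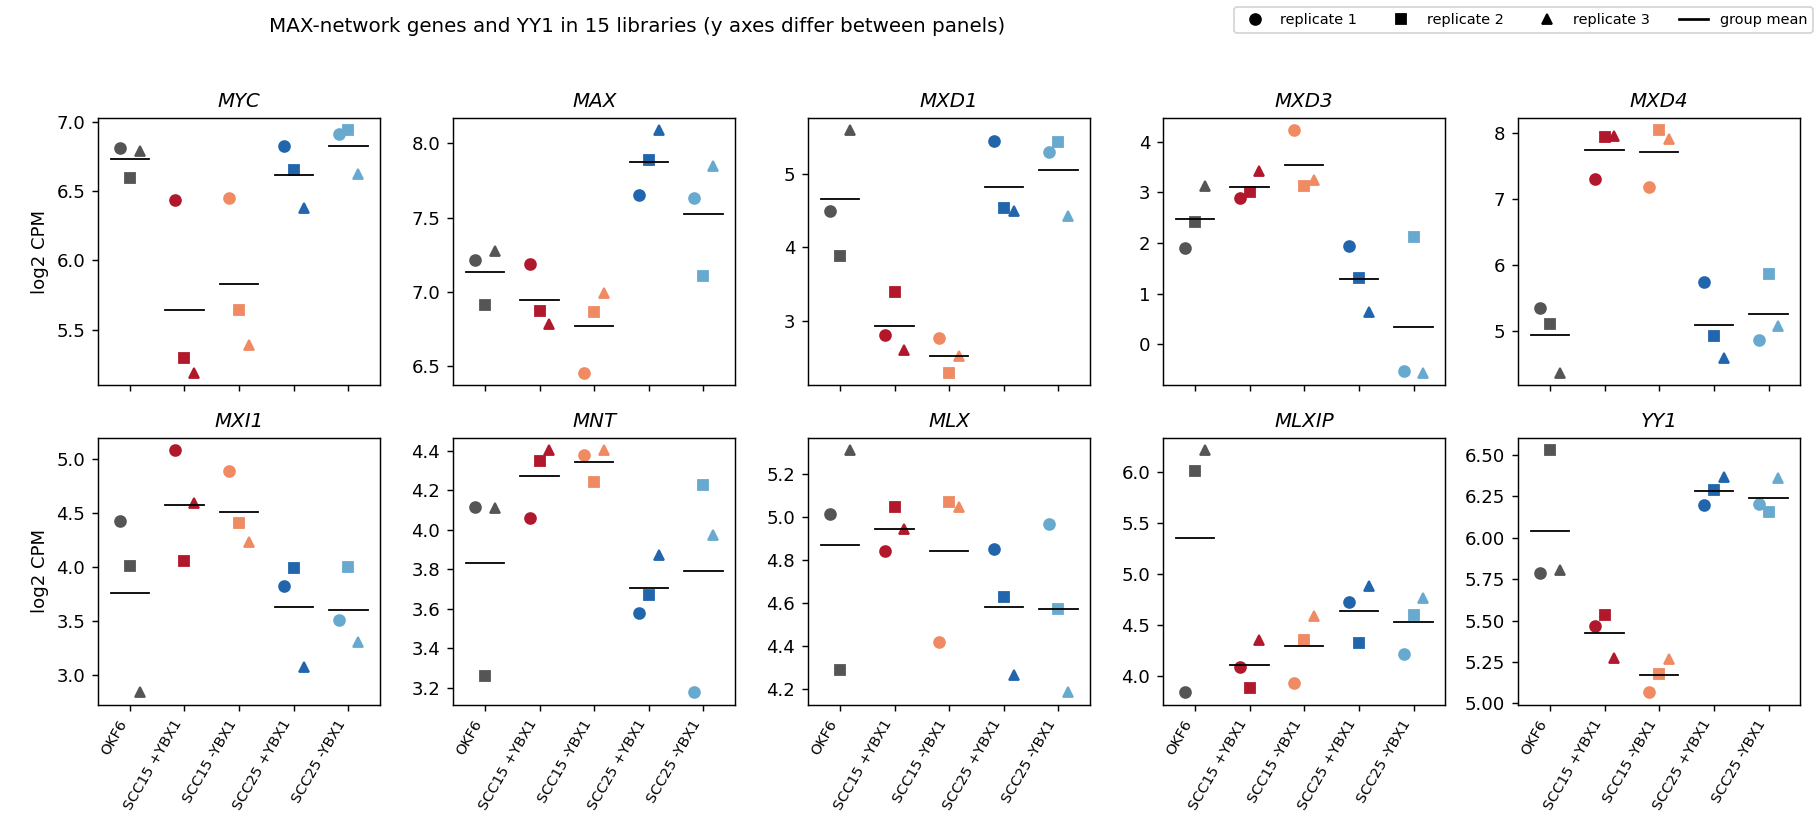
Level (log2 CPM, y axis, scaled separately in each panel) of each gene in the 5 groups on the x axis, with circles, squares and triangles for replicates 1, 2 and 3 and a line at the group mean. MXD4 sits at 7.18 or above in all 6 SCC15 libraries and at 5.86 or below in the other 9, and MXD1 shows the opposite order.

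MYC, the activator of the network, was about 2-fold lower in SCC15 than in either other line, and its level was uneven within SCC15. The gene lies on chromosome 8 of hg38 (127735434 to 127742951, plus strand). Its level was 6.81, 6.59 and 6.79 in OKF6, 6.82, 6.65 and 6.38 in SCC25 +YBX1 and 6.43, 5.30 and 5.19 in SCC15 +YBX1. Replicate 1 of SCC15 lay just above the lowest SCC25 library, while replicates 2 and 3 lay more than 1 unit below it. The same split appeared after doxycycline, with 6.45, 5.64 and 5.39 in SCC15 -YBX1. Replicate 1 also stood apart over all genes in both SCC15 groups, and its part in the level of MYC was not tested. The log2 difference of SCC15 from OKF6 was -1.09 ± 0.30 (SE; adjusted p = 0.0114, limma), and the libraries did not overlap. Against SCC25 it was -0.98 ± 0.30 (adjusted p = 0.0229), with the first SCC15 library inside the SCC25 range. SCC25 and OKF6 differed by -0.11, with a 95% interval of -0.78 to 0.55. The difference from OKF6 lost its call without SCC15 replicate 2 (adjusted p = 0.0516) or 3 (0.0528), and that from SCC25 under quantile normalization (0.0696) and without any of 4 libraries (SCC15 replicates 2 and 3, SCC25 replicates 1 and 2; 0.0672 to 0.0962).

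MAX, the shared partner, was highest in SCC25. Its level was 7.66, 7.89 and 8.09 in SCC25 +YBX1, 7.21, 6.91 and 7.28 in OKF6 and 7.18, 6.87 and 6.78 in SCC15 +YBX1. Every SCC25 +YBX1 library exceeded all libraries of both other lines. The log2 difference was 0.74 ± 0.19 from OKF6 (SE; adjusted p = 0.0148, limma), and SCC15 lay -0.93 ± 0.19 from SCC25 (adjusted p = 0.00265). OKF6 and SCC15 overlapped, with a difference of -0.19 (95% interval -0.61 to 0.24). The rise over OKF6 was not called under quantile normalization (0.52, adjusted p = 0.0724) or without SCC25 replicate 2 (0.0540) or 3 (0.0690).

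Among the repressors, MXD4 gave the largest difference of all 10 genes. MXD4 was at 7.31, 7.94 and 7.96 in SCC15 +YBX1, 5.34, 5.10 and 4.36 in OKF6 and 5.74, 4.92 and 4.59 in SCC25 +YBX1. The lowest SCC15 library exceeded the highest of the other lines by more than 1 unit. The level in SCC15 was 6.99-fold that in OKF6 (log2 difference 2.81 ± 0.35 SE, adjusted p = 5.6e-05, limma) and 6.32-fold that in SCC25 (2.66 ± 0.35, adjusted p = 0.00011). MXD4 was called in both comparisons under every alternative run.

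MXD1, a repressor known to rise as epithelial cells differentiate, went the other way. Its level was 2.81, 3.40 and 2.60 in SCC15 +YBX1, 4.49, 3.88 and 5.59 in OKF6 and 5.45, 4.53 and 4.50 in SCC25 +YBX1. SCC15 lay below every library of the other lines, and OKF6 itself spread from 3.88 to 5.59. SCC15 was 3.29-fold lower than OKF6 (log2 difference -1.72 ± 0.45 SE, adjusted p = 0.00885, limma) and 3.70-fold lower than SCC25 (-1.89 ± 0.45, adjusted p = 0.00635). It was called in both under every alternative run at a threshold of 0.05. MXD1 was low in SCC15, as were the keratinocyte markers given above. In SCC25 against OKF6, MXD1 differed by 0.17 (not called), whereas the median of the 10 markers was -1.02. The part of the markers in the level of MXD1 was not tested.

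MXD3, a repressor expressed in proliferating cells, was low everywhere. It was at 2.88, 3.00 and 3.42 in SCC15 +YBX1, 1.90, 2.41 and 3.12 in OKF6 and 1.95, 1.3 and 0.64 in SCC25 +YBX1. SCC15 exceeded SCC25 in every library by a mean of 1.81 ± 0.49 (log2, SE; adjusted p = 0.0125, limma), which was lost without SCC15 replicate 3 (0.0560) or SCC25 replicate 3 (0.0548). SCC25 lay -1.18 from OKF6 (adjusted p = 0.0947), a difference called under quantile normalization (-1.50, adjusted p = 0.0452) and without OKF6 replicate 1 (-1.47, adjusted p = 0.0404).

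MXI1 and MNT, the other 2 repressors, had higher means in SCC15 than in the other lines without passing the test when all libraries were used. MXI1 was at 5.09, 4.05 and 4.59 in SCC15 +YBX1 and at 3.83, 3.99 and 3.07 in SCC25 +YBX1 (log2 difference 0.95, adjusted p = 0.117). MNT was at 4.06, 4.34 and 4.40 in SCC15 +YBX1 and at 3.58, 3.67 and 3.87 in SCC25 +YBX1 (0.56, adjusted p = 0.171). The groups did not overlap for either gene. Both were called when only these 2 groups were in the limma fit (adjusted p = 0.0308 and 0.0474). In that fit 59.6% of all genes were called, against 43.6% with all groups. MXI1 was also called in SCC15 against OKF6 without OKF6 replicate 1 (log2 difference 1.15, adjusted p = 0.0496, limma). OKF6 spread over 2.84 to 4.43 for MXI1 and over 3.26 to 4.12 for MNT, and overlapped both lines.

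The make-up of the repressor set differed between the lines. Since a 3′ end library gives each transcript about 1 place to be read whatever its length, the reads on the 5 repressors can be split by gene. MXD4 took 71.1% to 81.7% of these reads in SCC15 +YBX1, 20.1% to 43.1% in OKF6 and 33.8% to 42.1% in SCC25 +YBX1. MXD1 took 1.93% to 3.47% in SCC15 +YBX1, 18.4% to 47.4% in OKF6 and 27.5% to 34.5% in SCC25 +YBX1. The shares of these genes in SCC15 did not overlap those in the other lines. MXI1 took 20.1% in OKF6 replicate 2, next to 18.4% for MXD1 in that library, so the order of the smaller shares varied within OKF6. The 5 genes summed to 224 to 311 CPM in SCC15 +YBX1, 80.2 to 106 CPM in OKF6 and 71.2 to 127 CPM in SCC25 +YBX1. The log2 level of MYC minus that of MXD4 was -0.88 to -2.77 in SCC15 +YBX1, 1.47 to 2.43 in OKF6 and 1.09 to 1.79 in SCC25 +YBX1; it is a difference within a library and is read here only between groups.

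**Figure D2:**
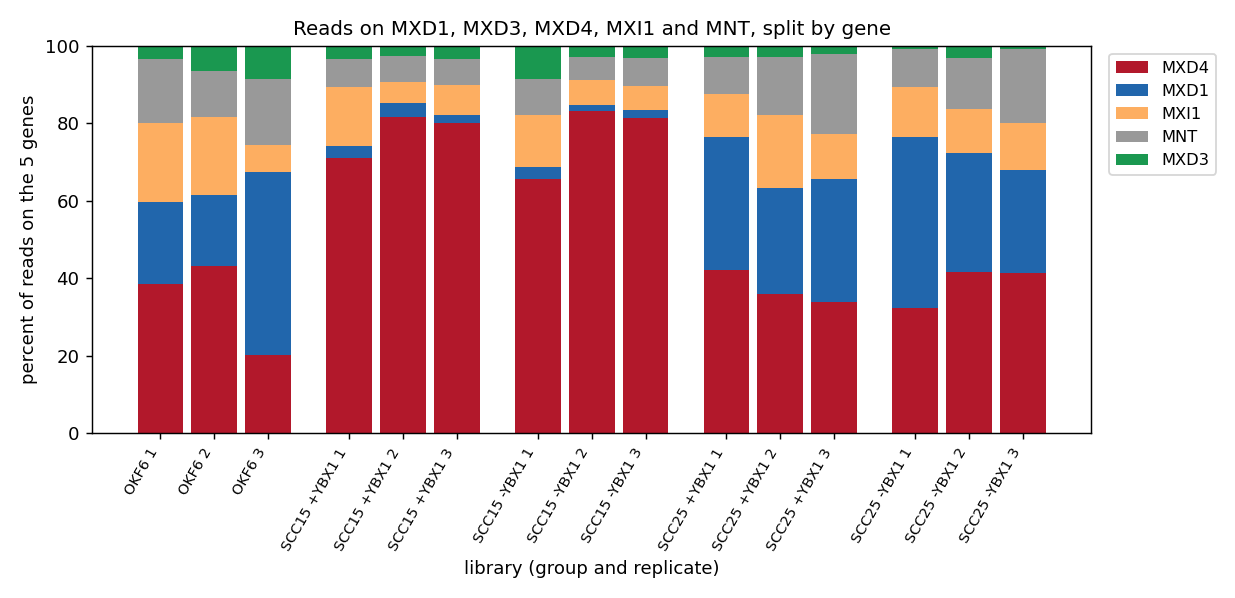
Percent of the reads on MXD1, MXD3, MXD4, MXI1 and MNT (y axis, each bar sums to 100) that fell on each gene, for the 15 libraries on the x axis, with colours for the genes. MXD4 fills 65.7% to 83.1% of the bar in the 6 SCC15 libraries, whereas in the OKF6 and SCC25 bars MXD4 fills 20.1% to 43.1% and MXD1 18.4% to 47.4%.

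MLX and MLXIP make up the sugar-sensing arm. MLX was not called between any of the lines. It was at 4.84, 5.04 and 4.94 in SCC15 +YBX1, 5.01, 4.29 and 5.31 in OKF6 and 4.85, 4.63 and 4.27 in SCC25 +YBX1. The 95% interval of its log2 difference ran from -0.57 to 0.72 in SCC15 against OKF6 and from -0.94 to 0.36 in SCC25 against OKF6. MLXIP turned on a single library. It was at 3.84 in OKF6 replicate 1 and at 6.02 and 6.22 in replicates 2 and 3, against 4.09, 3.88 and 4.35 in SCC15 +YBX1 and 4.72, 4.32 and 4.88 in SCC25 +YBX1. With all libraries, SCC15 lay -1.25 ± 0.53 from OKF6 (SE; adjusted p = 0.0700, limma) and SCC25 -0.72 ± 0.53 (adjusted p = 0.333). Without OKF6 replicate 1, the library that also stood apart over all genes, the differences were -2.01 (adjusted p = 6.3e-05) and -1.48 (adjusted p = 0.00114).

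YY1 was lowest in SCC15. Its level was 5.46, 5.53 and 5.28 in SCC15 +YBX1, 5.79, 6.53 and 5.80 in OKF6 and 6.2, 6.29 and 6.37 in SCC25 +YBX1. The libraries of SCC15 and of SCC25 lay close together, while OKF6 replicate 2 stood above the other OKF6 libraries. SCC15 was 1.81-fold lower than SCC25 (log2 difference -0.86 ± 0.23 SE, adjusted p = 0.0105, limma), with adjusted p = 0.0545 under quantile normalization. It was 1.53-fold lower than OKF6 (-0.62 ± 0.23, adjusted p = 0.0416). That call was lost under 5 of the other settings, among them equal library medians (adjusted p = 0.116), and without any of 4 libraries (OKF6 replicate 2 or any SCC15 replicate; 0.0681 to 0.128).

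**Figure D3:**
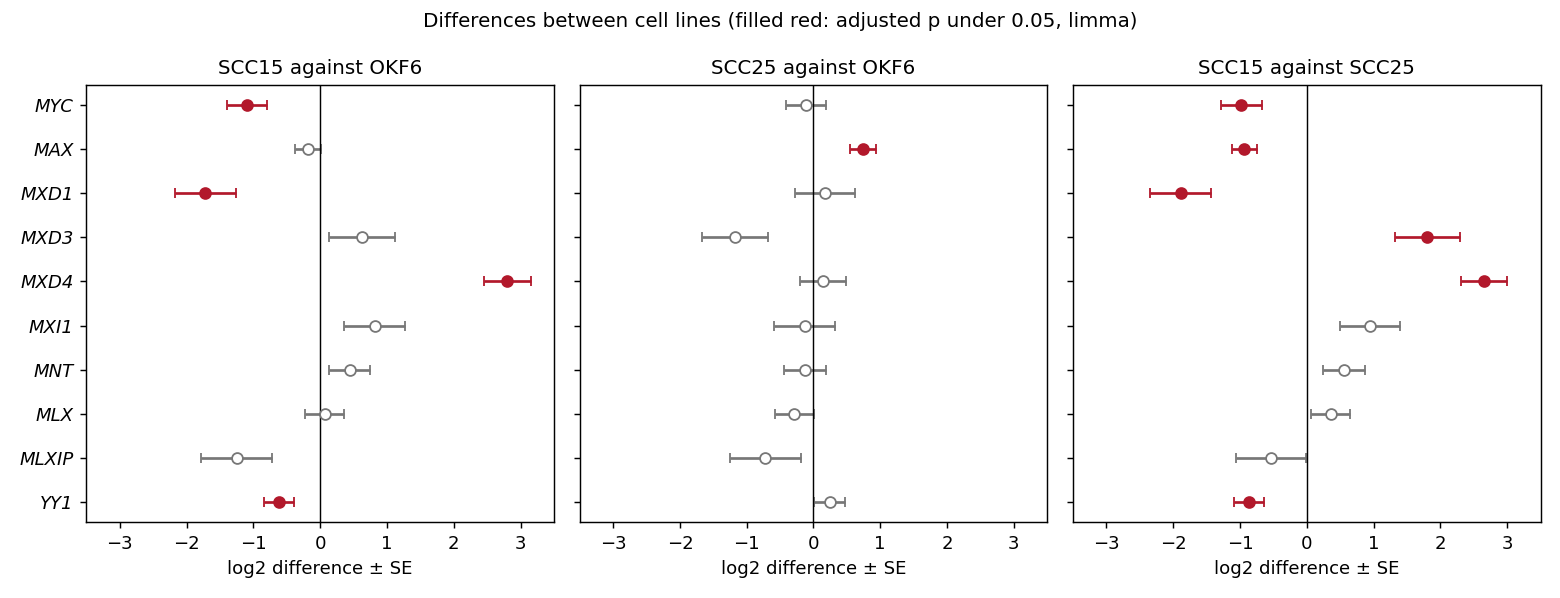
Log2 difference (x axis) of each gene (y axis) in the 3 comparisons between lines, with bars of 1 SE and filled red points for an adjusted p under 0.05. MXD4 at 2.81 and 2.66 lies farthest from 0 in both comparisons with SCC15, and most genes of SCC25 against OKF6 lie near 0.

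Across the 15 libraries, the genes of the network that were high in SCC15 and those that were low there ran against each other. The strongest negative Pearson correlations were MXD1 with MXD4 (-0.85), MXD4 with YY1 (-0.85), MAX with MXD3 (-0.84) and MYC with MXD4 (-0.82), and the strongest positive was MYC with MXD1 (0.79). The libraries fall into 3 lines, so these values mostly restate the differences between lines and are given as a description. Among genes outside the set with a mean above the median, those most like MYC over the 15 libraries were YPEL5 (r = 0.94), MAFF (0.93) and VEGFA (0.93), the last a growth factor for blood vessels. Those most like MAX were BAG5 (0.95), HMGA2 (0.92) and LSG1 (0.92), and those most like YY1 were FKBP15 (0.97), CACUL1 (0.96) and RAB21 (0.96).

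Of the network's other genes, MLXIPL, the paralog of MLXIP best known in liver, was higher in both carcinoma lines. It had 80 reads over the 3 SCC15 +YBX1 libraries, 62 over SCC25 +YBX1 and 1 over OKF6, a depth-adjusted ratio of 69.6 (95% exact interval 12.1 to 2783, counting error only) for SCC15 and 63.5 (11 to 2550) for SCC25 over OKF6. It was called in both comparisons (adjusted p = 2.3e-05 and 0.00011, limma). MYCL and MGA were not called in any comparison between lines, and MYCN was not in the tables.

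Of 43 genes that MYC is known to activate, 14 were higher and 4 lower in SCC15 than in OKF6, where 26.9% of all genes were called higher and 23.4% lower. Their median log2 difference was 0.30 against 0.10 over all genes. Against SCC25, 9 were higher and 2 lower, beside 20% and 23.6% of all genes (median 0.25 against -0.01). Under quantile normalization, 19 were higher and 1 lower than in SCC25, where 3430 and 2767 of 12995 genes were. Without quantile normalization, the counts of higher genes were near the shares over all genes, and those of lower genes were below them. DNPH1, which breaks down nucleotides, was 13-fold higher in SCC15 than in OKF6 (adjusted p = 3.3e-06, limma). TERT, the catalytic subunit of telomerase, had 46 reads over the SCC15 +YBX1 libraries and none over OKF6, at least 13.3-fold higher with OKF6 set to 3 reads over the group. CCND2, a cyclin, was 11.4-fold lower in SCC15 and 12.1-fold lower in SCC25 than in OKF6. In SCC25 against OKF6, 9 of the 43 were higher and 5 lower, beside 18.9% and 11.3% of all genes (median 0.10 against 0.13), with IPO4, a nuclear import receptor, at 4.29-fold and DNPH1 at 4.13-fold.

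Genes that MYC is known to repress with MIZ1 split in both directions. Of 9 measured, 3 were higher and 4 lower in SCC15 than in OKF6 (26.9% and 23.4% of all genes), and 1 higher and 4 lower than in SCC25 (20% and 23.6%). NDRG1, a stress-responsive gene, was 18.5-fold lower in SCC15 than in SCC25 (adjusted p = 3.6e-05, limma), at 7.17, 6.12 and 5.57 against 11.3, 10.5 and 9.67. Replicate 1 of SCC15, which stood apart over all genes, was again the highest of its group. CDKN2B and CDKN1A, inhibitors of cell cycle kinases, were 6.96-fold and 3.59-fold lower. CDKN1C and GAS1 were higher than in OKF6 in both carcinoma lines, CDKN1C by 4.05 and 5.07 and GAS1 by 5.17 and 4.0 on the log2 scale. Both had few reads over the OKF6 libraries, 24 for CDKN1C and 17 for GAS1. With reads summed over each group, the folds over OKF6 in SCC15 and SCC25 were smaller. They were 7.87 and 15.9 for CDKN1C and 14.8 and 6.51 for GAS1.

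Of 7 measured targets of MLX heterodimers, 1 was called higher and 3 lower in SCC15 than in OKF6, 1 higher and 2 lower in SCC25 than in OKF6, and 1 higher and 3 lower in SCC15 than in SCC25. The shares of all genes called higher and lower were 26.9% and 23.4%, 18.9% and 11.3%, and 20% and 23.6% in the same order. The median of the 7 was -0.71, -0.62 and -0.35 in these comparisons, against 0.10, 0.13 and -0.01 over all genes, and MLXIP itself differed by -1.25, -0.72 and -0.53 without being called. The genes lower in SCC15 than in OKF6 were KLF10 (-2.91), ARRDC4 (-1.87) and the fatty acid synthase FASN (-1.58). TXNIP, an inhibitor of glucose uptake, was 2.43-fold higher in SCC25 than in OKF6 (adjusted p = 0.0453, limma) and 3.86-fold lower in SCC15 than in SCC25. TXNIP was uneven within SCC15, at 7.33, 5.85 and 5.63 in SCC15 +YBX1 and 9.64, 5.81 and 5.86 in SCC15 -YBX1. Replicate 1, which stood apart over all genes, was the highest in both.

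Among other factors that bind CACGTG, 11 were measured, of which 5 were lower and 1 higher in SCC15 than in OKF6, 5 lower and 0 higher than in SCC25, and 1 lower in SCC25 than in OKF6. Of all genes, 23.4%, 23.6% and 11.3% were called lower in these comparisons and 26.9%, 20% and 18.9% higher. CLOCK and ARNTL, partners in the circadian clock, were 18.5-fold and 8.98-fold lower in SCC15 than in OKF6. BHLHE40, a repressor of the same clock, was 8.33-fold lower in SCC15 and 3.00-fold lower in SCC25. HIF1A, the oxygen-regulated factor, was 3.44-fold lower in SCC15 than in SCC25.

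Genes for proteins that work with the network were called in both directions, in counts that stand beside 26.9% higher and 23.4% lower of all genes in SCC15 against OKF6, 20% and 23.6% in SCC15 against SCC25, and 18.9% and 11.3% in SCC25 against OKF6. Of 16 corepressor genes, 5 were higher and 3 lower in SCC15 than in OKF6, 4 and 2 than in SCC25, and 2 and 2 in SCC25 than in OKF6. NCOR1, a nuclear corepressor, was 3.33-fold lower in SCC15 and 3.59-fold lower in SCC25 than in OKF6. RBBP7, a histone-binding subunit, was 2.94-fold and 1.73-fold higher. SAP30, a SIN3 subunit, was 6.49-fold lower in SCC25 than in OKF6. Of 16 MYC cofactors, 4 were higher and 2 lower in SCC15 than in OKF6, 4 and 1 in SCC25 than in OKF6, and 3 and 3 in SCC15 than in SCC25. TRRAP, the scaffold of histone acetylases, was 4.73-fold higher in SCC15 than in SCC25, and HCFC1 was 3.18-fold higher in SCC15 than in OKF6. Of 12 genes that act on MYC protein turnover, 3 were higher and 2 lower in SCC15 than in OKF6, 2 and 3 than in SCC25, and 2 and 0 in SCC25 than in OKF6. GSK3B, a kinase that marks MYC for destruction, was 4.52-fold lower in SCC15 than in OKF6 and 4.42-fold lower than in SCC25. Of 19 YY1 partners, 4 were higher and 3 lower in SCC15 than in OKF6, 4 and 3 than in SCC25, and 1 and 3 in SCC25 than in OKF6. SUZ12, a Polycomb subunit, was 6.70-fold lower in SCC15 and 2.72-fold lower in SCC25 than in OKF6, and MCRS1, an INO80 subunit, was 4.68-fold and 3.59-fold higher. All genes named in this paragraph passed the test (limma, adjusted p under 0.05) with no overlap between libraries.

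**Figure D4:**
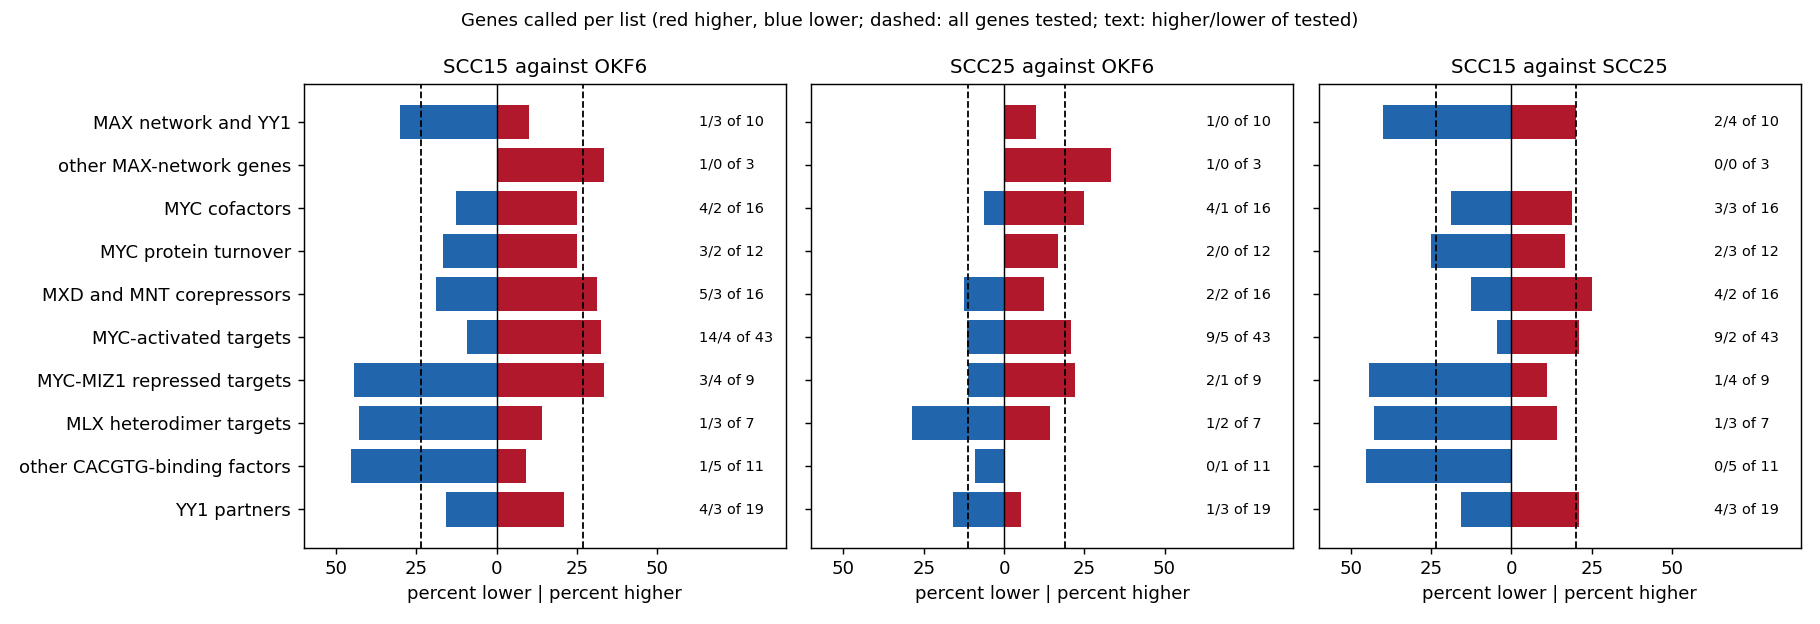
Percent of the genes of each list (y axis) called higher (red, right) or lower (blue, left) in each comparison between lines, at an adjusted p under 0.05, with dashed lines at the percent for all genes tested and the counts at the right. The CACGTG-binding factors reach 5 lower of 11 in both comparisons with SCC15, and the MYC-activated targets 14 higher of 43 in SCC15 against OKF6.

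The question of the doxycycline groups is what follows loss of YBX1. Every -YBX1 library received doxycycline and no +YBX1 library did, and no group had doxycycline without a YBX1 guide. Loss of YBX1, doxycycline itself and cutting by Cas9 therefore cannot be told apart. YBX1 itself was at 5.11, 5.56 and 6.00 in SCC15 +YBX1 and 3.36, 3.71 and 3.13 in SCC15 -YBX1. In SCC25 it was at 6.74, 6.31 and 6.62 before and 5.26, 4.70 and 3.65 after doxycycline. It was lower after doxycycline in every library of both lines, by 2.15 ± 0.35 in SCC15 (SE; adjusted p = 0.326, limma) and 2.01 ± 0.35 in SCC25 (adjusted p = 0.290) on the log2 scale. Averaged over both lines, YBX1 passed the test (adjusted p = 0.0103) and was the only gene to do so, 0.0077% of all. That call was lost without any of 6 of the 12 libraries (SCC15 +YBX1 replicates 2 and 3, SCC15 -YBX1 replicates 1 and 3, SCC25 +YBX1 replicates 1 and 3; adjusted p of 0.0527 to 0.0711) and with no variance trend (0.140). A guide that cuts the gene need not remove its RNA, so the RNA level only in part checks the loss of the protein. The study reports lower YBX1 protein by western blot in both lines, which was not measured here.

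None of the 10 genes passed the test in either line, where 0% of all genes did, nor in the average or in the difference between the lines, again against 0% for the latter. None reached an unadjusted p under 0.05 either, and 0 of the 10 passed under every alternative run, voom weights among them. That level was reached by 2.32% of all genes in SCC15, 3.09% in SCC25, 2.15% in the average and 2.26% in the difference between lines. The log2 differences ran from -0.41 (MXD1) to 0.43 (MXD3) in SCC15 and from -0.95 (MXD3) to 0.23 (MXD1) in SCC25. For MXD4, the gene that set SCC15 apart, the 95% interval was -0.74 to 0.69 in SCC15 and -0.53 to 0.90 in SCC25, so a change as large as the one between lines lies outside both.

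MYC was slightly higher in the -YBX1 library of every same-numbered pair, by 0.02, 0.34 and 0.20 in SCC15 and by 0.09, 0.28 and 0.24 in SCC25. Its levels in SCC25 -YBX1 were 6.91, 6.94 and 6.62, which overlap those of SCC25 +YBX1. The average over both lines was 0.20 (95% interval -0.28 to 0.68; adjusted p = 0.9999, limma). With the pairs as a block the unadjusted p was 0.0613 and the adjusted p 0.926. The difference was thus in the same direction in 6 of 6 pairs and did not pass the test.

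MAX was at 6.45, 6.86 and 6.99 in SCC15 -YBX1 and at 7.63, 7.10 and 7.85 in SCC25 -YBX1. The averaged difference was -0.26 (95% interval -0.58 to 0.06), and most of it came from pair 1 of SCC15 (-0.73) and pair 2 of SCC25 (-0.79). YY1 was at 5.07, 5.18 and 5.27 in SCC15 -YBX1, just under the lowest SCC15 +YBX1 library. It was the only one of the 10 genes whose +YBX1 and -YBX1 libraries did not overlap in SCC15, which held for 7.04% of all genes. In SCC25 the libraries overlapped for all 10 genes, while 7.31% of all genes had none. The difference was -0.25 (95% interval -0.57 to 0.06). In SCC25 YY1 differed by -0.04 (-0.36 to 0.27).

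Among the repressors, MXD3 varied most. It was at 4.23, 3.13 and 3.25 in SCC15 -YBX1 and at -0.52, 2.12 and -0.57 in SCC25 -YBX1, where replicates 1 and 3 had 3 reads each. Its difference in SCC25 minus that in SCC15 was -1.39 ± 0.90 (SE), and pairs 1 and 2 of SCC25 moved in opposite directions (-2.47 and 0.82). MXD1 stood at 2.77, 2.30 and 2.53 in SCC15 -YBX1 and at 5.30, 5.43 and 4.42 in SCC25 -YBX1. MXD4 remained high in SCC15 -YBX1, at 7.18, 8.04 and 7.91, and took 65.7% to 83.1% of the repressor reads there. MXI1, MNT, MLX and MLXIP differed by -0.10 to 0.18 in SCC15 and by -0.12 to 0.08 in SCC25.

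**Figure D5:**
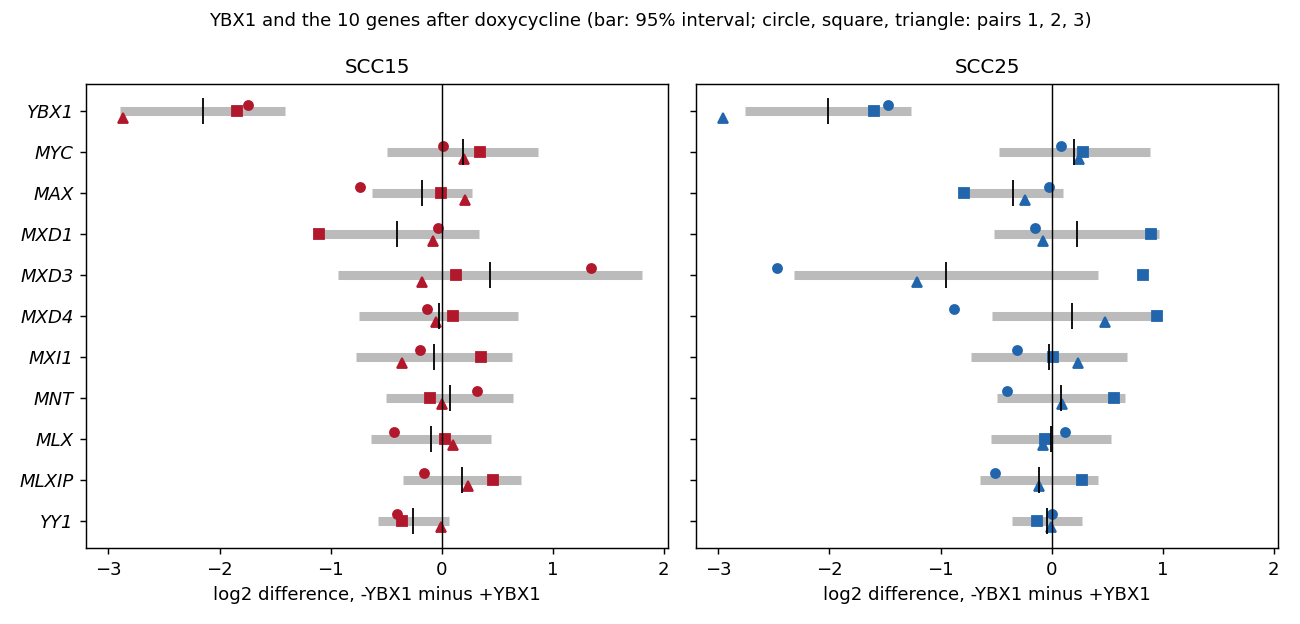
Log2 difference of -YBX1 from +YBX1 (x axis) for YBX1 and the 10 genes (y axis) in SCC15 and SCC25, with circles, squares and triangles for same-numbered pairs 1, 2 and 3, a tick at the mean difference and a grey bar for its 95% interval. YBX1 lies at -2.15 and -2.01 with its bar left of 0, and the bars of all 10 genes cross 0 in both lines.

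No gene of any list described above passed the test after doxycycline in either line, and 0 of 43 MYC-activated targets did. By sign, 37 of the 43 were lower in SCC25 -YBX1 and 28 in SCC15 -YBX1, with medians of -0.22 and -0.12 where the medians of all genes were -0.02 and -0.01. Of the 43, 3 had an unadjusted p under 0.05 (limma) in SCC25, beside 3.09% of all genes, and 0 in SCC15, beside 2.32%. In SCC25 the median was 0.03 in pair 1, -0.53 in pair 2 and -0.11 in pair 3, so pair 2 gave most of it. The -YBX1 library of that pair stood apart from its group over all genes. It also had the highest share of reads on its 10 most abundant genes, 16.2% against 11.4% to 12.5% in the other SCC25 libraries. The part of that library in the result was not tested. All 19 YY1 partners were lower by sign in SCC25 -YBX1 (median -0.18 against -0.02 over all genes), none at an unadjusted p under 0.05 (limma). In SCC15 -YBX1, 9 of 19 were lower. The genes of a list were measured in the same libraries, so their signs are not independent. The share of all genes lower by sign was not counted, so the counts by sign are a description only.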

How the data were processed

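RNA of human cell lines was sequenced as 15 QuantSeq 3′ FWD libraries (75-base single reads). Per the labels and the study's methods, the authors used Cutadapt for trimming, HISAT2 for alignment (hg38), featureCounts for counting and limma for filtering and normalization; versions of the first 3 are not given in the sources used here. The deposited values are log2 CPM, made by the authors from reads per gene plus 0.5 and normalised library sizes. Of the values, 100.0% gave whole reads (within 0.1 read). The 6 +YBX1 carcinoma libraries are in both tables with the same values.

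Differences were tested with limma 3.58.1 (lmFit and eBayes with a variance trend, two-sided) in R 4.3.3 on the deposited log2 values of all 12995 genes, with all groups of a table in the fit and Benjamini-Hochberg adjustment at 0.05. In 2 draws of simulated reads with 12995 genes and the library sizes of SCC15 against OKF6, 50 and 44 of 100 genes changed by 1 on the log2 scale and 96 and 97 of 100 changed by 2 were called, with 10 and 5 false calls. With those of -YBX1 against +YBX1 in SCC25, 60 and 62 of 100 and 98 and 95 of 100 were called, with 9 and 4 false calls. The draws gave every gene the same dispersion, 0.0503 for SCC15 against OKF6 and 0.0328 for SCC25. In the measured libraries, YBX1 differed by -2.01 in SCC25 and was not called (adjusted p = 0.290, limma). How often a change of that size is called in the measured libraries was not tested. The groups share replicate numbers. Within a line, the +YBX1 and -YBX1 libraries of a number moved off their group means together. Their correlations were 0.51, 0.35 and 0.22 in SCC15 and 0.14, 0.46 and 0.40 in SCC25, over 6497 genes. SCC15 -YBX1 replicate 3 was closer to +YBX1 replicate 2 (0.32), and SCC25 -YBX1 replicate 1 to +YBX1 replicate 3 (0.24). Libraries of the same number are treated as pairs within a line, by the data and not by a label. The pairing is less sure where another number was closer. Numbers did not pair libraries between lines. Alternatives are given in the closing section. The 10 genes and the gene lists were chosen with earlier results of these data known, so no pattern is independent support for its choice. From each list the text names at most 3 genes per comparison, those with the largest difference among genes past the test whose groups do not overlap, and some genes that meet this rule are not reported here; NDRG1 and TXNIP values by library illustrate such genes. Genes like MYC, MAX and YY1 are the 3 with the highest Pearson correlation over 15 libraries among genes with a mean above the median. Positions are from GENCODE v44; 75-base pieces were mapped with minimap2 2.31. Exact 95% intervals of read ratios and the floor of 3 reads over a group cover counting error only.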

Additional observations from a re-analysis of the deposited data

How the results depend on the processing

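The direction of every called difference of the 10 genes was the same under all alternatives run, and MXD4 and MXD1 kept their calls in both comparisons with SCC15 at a threshold of 0.05. Quantile normalization moved the median of all genes from 0.13 to -0.05 in SCC25 against OKF6 and from -0.01 to 0.17 in SCC15 against SCC25, and equal library medians moved it from 0.10 to 0.26 in SCC15 against OKF6. Calls lost or gained by single genes are given beside them in the report; the cause was not tested.

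With an adjusted p under 0.01, 2 of the 10 genes were called in SCC15 against OKF6 (37.1% of all genes), 0 in SCC25 against OKF6 (2206 genes, 17% of all) and 3 in SCC15 against SCC25 (29.8%). In the average after doxycycline, YBX1 was not called at 0.01 or with no variance trend (0 genes). Leaving out 1 library at a time gave 2 genes of the 10 (without SCC15 replicate 2 or 3; 42.3% and 42.6% of all genes) to 6 (without OKF6 replicate 1; 57.2%) in SCC15 against OKF6, and 0 (without SCC25 replicate 2 or 3; 20.2% and 21.4%) to 3 (without OKF6 replicate 1; 41%) in SCC25 against OKF6. It gave 0 to 6 genes of all in SCC25 after doxycycline, the 6 without SCC25 -YBX1 replicate 2, and 0 to 2 genes in the average, with 0 without any of the 6 libraries named in the report. A group left with 2 libraries is assumed to vary like the others.

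The following uncalled differences changed sign when 1 library was left out (log2, lowest to highest). In SCC15 against OKF6 this was MLX (-0.22 to 0.29). In SCC25 against OKF6 these were MYC (-0.21 to 0.0078), MXD1 (-0.21 to 0.64), MXD4 (-0.18 to 0.39), MXI1 (-0.59 to 0.20) and MNT (-0.41 to 0.020). In SCC15 after doxycycline these were MYC (-0.12 to 0.58), MXD4 (-0.24 to 0.24), MXI1 (-0.33 to 0.19), MNT (-0.034 to 0.14) and MLX (-0.21 to 0.11). In SCC25 after doxycycline these were MXD4 (-0.12 to 0.51), MXI1 (-0.30 to 0.16), MNT (-0.13 to 0.39), MLX (-0.20 to 0.19) and MLXIP (-0.28 to 0.038). Quantile normalization turned the sign of MXD4 in SCC15 (0.024) and of MLX in SCC25 (0.0013) after doxycycline.

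With the replicate number as a block, 4, 1 and 6 of the 10 genes were called in SCC15 against OKF6, SCC25 against OKF6 and SCC15 against SCC25, beside 49.3%, 28.5% and 41.9% of all genes, and 0 after doxycycline in either line. The block of pairs within each line, added after the data were seen, changed no call: 0 of the 10 genes after doxycycline, and YBX1 alone in the average (adjusted p = 0.0206, limma). At this depth MXD3, with 3 reads in 2 libraries, gives the widest interval of the 10 genes after doxycycline.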
